A study of Mus musculus with 2 samples.

Results

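The cells described here are liver macrophages that carried transcripts of the complement C1q chains and of Lyz2, a lysozyme gene of myeloid cells, with no transcript of Arg1 or Spp1. Arg1 encodes arginase and Spp1 encodes osteopontin, and both are known as products of macrophages in injured and healing tissue. They were found in 2 droplet libraries of liver leukocytes sorted for the surface markers CD45 and CD11b, which take in macrophages, monocytes, NK cells, neutrophils and part of the dendritic cells. One library, RES, came from C57BL/6 mice whose liver fibrosis had resolved, and the other, Ctrl, from uninjured C57BL/6 mice. Cells of 5 mice were pooled before the sort in each group. The injuring agent, its duration, the time since it was withdrawn and the age and sex of the mice are not given in the sources used here. With 1 library per group, no difference between RES and Ctrl could be tested against the spread between mice, and the effect of the group cannot be told apart from that of the library. The intervals below cover counting error only.

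The cells were chosen by their unique molecular identifier (UMI) counts, where a UMI stands for 1 captured transcript. A barcode was kept with at least 200 detected genes and at most 10% mitochondrial UMIs, and it belonged here with at least 3 UMIs of Lyz2, at least 3 of C1qa, C1qb and C1qc together and none of Arg1 or Spp1. It also had none of Ncr1 or Klrb1c (NK cells), Cd79a (B cells), or Xcr1 or Clec9a (type 1 dendritic cells). This left 138 of the 7603 kept barcodes, 48 in RES and 90 in Ctrl. Since these genes selected the cells, their levels are given as a description.

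C1q is the recognition subunit of the classical complement pathway and is assembled from the products of C1qa, C1qb and C1qc, which lie side by side on mouse chromosome 4 (GRCm38; C1qb at chr4:136880129-136886187, C1qc at chr4:136889804-136893065 and C1qa at chr4:136895917-136898803, all on the minus strand). Unlike most complement components, which hepatocytes secrete, C1q is made mainly by macrophages and dendritic cells, and it also helps macrophages bind and take up dying cells. In the liver, C1q is a transcript of resident Kupffer cells, which are marked by Clec4f, Timd4, Vsig4 and Cd5l, and of macrophages that derive from blood monocytes. Interferon gamma, released by NK and T cells, drives a set of genes in macrophages, among them the chemokines Cxcl9 and Cxcl10, the guanylate-binding proteins and the MHC class II transactivator Ciita.

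These macrophages made up 1.15% of kept barcodes in RES (48 of 4157, exact binomial 95% interval 0.853 to 1.53%) and 2.61% in Ctrl (90 of 3446, 2.11 to 3.20%), a difference of -1.46 percentage points with a Newcombe 95% interval of -2.11 to -0.85. Among Lyz2 cells that met the same exclusions the share was 2.45% in RES (1.81 to 3.24%) and 8.18% in Ctrl (6.63 to 9.96%). All C1q macrophages, with or without Arg1 and Spp1, made up 9.55% of kept barcodes in RES (397 cells) and 3.02% in Ctrl (104 cells). Cells free of Arg1 and Spp1 were therefore 12.1% of C1q macrophages in RES (9.05 to 15.7%) and 86.5% in Ctrl (78.4 to 92.4%). The others numbered 349 in RES and 14 in Ctrl, and their median Arg1 plus Spp1 count was 98 UMIs in RES and 4 in Ctrl.

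The limit of 0 UMIs for Arg1 and Spp1 can be set beside the amount of those transcripts in cells that should lack them. Among NK cells, 18.0% carried an Arg1 or Spp1 UMI in RES (163 of 904, median depth 4018 UMIs) and 1.98% in Ctrl (23 of 1159, median depth 3303 UMIs). Just outside the limit stood 12 RES and 4 Ctrl C1q macrophages with 1 such UMI. Taking them in gave 60 RES and 94 Ctrl cells and a difference of -1.28 points. At the other limit, 5 RES cells and 1 Ctrl cell had exactly 3 C1q UMIs, and 7 RES and 5 Ctrl cells were left out with 2. A C1q UMI was seen in 3.32% of RES and 3.01% of Ctrl NK cells.

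Depth per cell was higher in RES, with a median of 9452 UMIs (821 to 18267) and 2848 genes, against 6737 UMIs (597 to 18833) and 2365 genes in Ctrl. Summed over cells this gave 434349 UMIs in RES and 643288 in Ctrl. None of the cells had a barcode that occurs in both libraries, although 56 of the deposited barcodes did. Levels below are CPM, the UMIs of a gene per 1000000 UMIs after summing these C1q macrophages of a library. Shares of cells were also computed after thinning each cell to 1000 UMIs, which left out 1 RES and 4 Ctrl cells that were shallower. Ratios are log2 values of the RES level over the Ctrl level, with an exact conditional binomial 95% interval where given.

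The amount of C1q per cell differed between the libraries. C1q made up a median of 0.195% of a cell's UMIs in RES (interquartile range 0.0813 to 0.572%) and 0.663% in Ctrl (0.214 to 1.52%). The ranges overlapped nearly throughout, from 0.0246 to 2.55% in RES and from 0.029 to 3.69% in Ctrl. Cells under 0.1% numbered 15 in RES (31.2%) and 8 in Ctrl (8.89%). Cells between 0.1 and 0.5% numbered 19 in RES (39.6%) and 34 in Ctrl (37.8%). Cells at 0.5% or more numbered 14 in RES (29.2%, 17.0 to 44.1%) and 48 in Ctrl (53.3%, 42.5 to 63.9%). Depth moved with these bands: the median of the C1q-richest band was 6670 UMIs in RES and 3838 in Ctrl, while the lowest band had 10136 in RES and 10495 in Ctrl. The limit of 3 C1q UMIs sets a lowest possible share, which is higher in shallower cells. Its part in the depth of the bands was not tested.

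**Figure D1:**
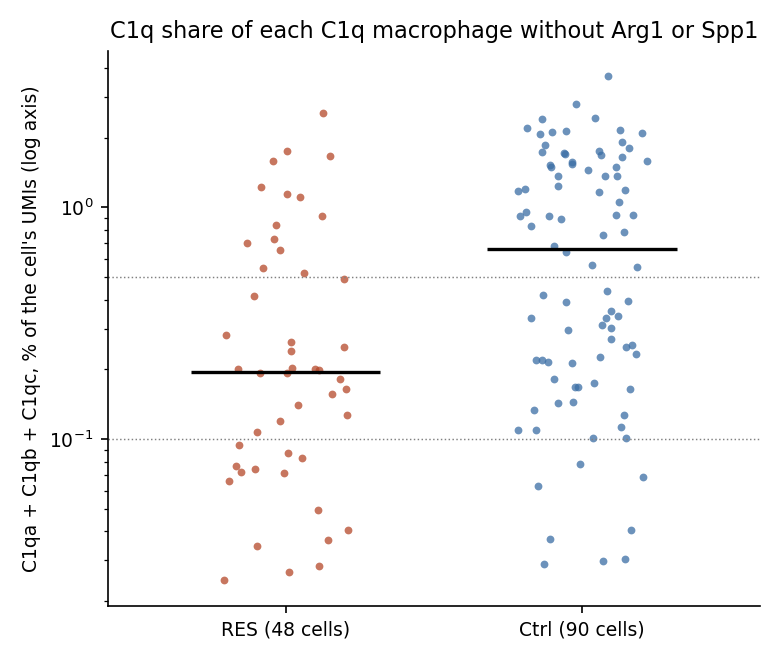
C1q share of a cell's UMIs (percent, log axis) for each C1q macrophage without Arg1 or Spp1, in RES (48 cells) and Ctrl (90 cells), 1 point per cell. Solid lines mark the medians and dotted lines the bands at 0.1 and 0.5%. The medians are 0.195% in RES and 0.663% in Ctrl, and the ranges overlap.

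A split by the number of C1q chains was made after the values were seen. UMIs of all 3 chains were present in 36 of 48 RES cells (75%, 60.4 to 86.4%) and 74 of 90 Ctrl cells (82.2%, 72.7 to 89.5%). A further 5 RES cells (10.4%) and 8 Ctrl cells (8.89%) had C1qb and neither partner chain, while no cell had C1qa alone or C1qc alone. The cells with C1qb alone carried less of Apoe, the apolipoprotein gene typical of tissue macrophages, at 324 CPM in RES and 530 CPM in Ctrl. In cells with all 3 chains Apoe stood at 10981 CPM in RES and 10069 CPM in Ctrl. Plac8, a gene of classical monocytes, ran the other way, at 2591 CPM in RES and 4733 CPM in Ctrl with C1qb alone, against 1203 CPM in RES and 1418 CPM in Ctrl with all 3 chains. Plac8 did not set the cells with C1qb alone apart in RES, since the 7 RES cells with 2 chains had 3459 CPM, while the 8 Ctrl cells with 2 chains had 1724 CPM.

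Most macrophage markers that the rule did not use were found in most of the cells, but Cxcl9 and Mertk were not. Mertk was in 15 of 48 RES cells and 25 of 90 Ctrl cells. The background given here is NK cells, so these values do not tell macrophages from monocytes. Apoe was found in 45 of 48 RES cells and 82 of 90 Ctrl cells, at 8664 CPM in RES and 8135 CPM in Ctrl. Aif1, a calcium-binding protein gene of macrophages, was found in 42 RES and 81 Ctrl cells, at 624 CPM in RES and 880 CPM in Ctrl. After thinning, 44.7% of RES and 57.0% of Ctrl cells carried Aif1, against 0.556% of RES and 0.262% of Ctrl NK cells. Csf1r, the receptor for the macrophage growth factor CSF1, was in 44 RES and 88 Ctrl cells, and the endosomal glycoprotein gene Cd68 in 42 RES and 76 Ctrl cells. Adgre1, which encodes F4/80, was in 27 RES cells at 120 CPM and 62 Ctrl cells at 201 CPM. Cxcl9, in contrast, was in 0 of 48 RES cells, a count that allows a share of up to 6.25% of cells with a UMI, which is no limit on cells expressing it, and in 9 of 90 Ctrl cells, so it does not mark this population.

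Markers of resident Kupffer cells were near the detection limit. The 9 genes of that list gave 38 UMIs in 10 RES cells and 78 UMIs in 18 Ctrl cells, or 87.5 CPM in RES and 121 CPM in Ctrl. Clec4f and Timd4, the C-type lectin and the phosphatidylserine receptor that define mouse Kupffer cells, had 0 UMIs in RES and 1 UMI each in Ctrl. Cd5l was in 4 cells of each library, at 27.6 CPM in RES and 45.1 CPM in Ctrl, and its ratio changed sign when the highest cell of each library was left out (0.57). Folr2, a folate receptor of some resident macrophages, had 0 UMIs in RES and 21 in 4 Ctrl cells, 18 of them in 1 cell.

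Genes used as monocyte markers were more abundant, though NK cells carried some of them too. Ccr2, the receptor that brings monocytes out of the marrow, was in 40 RES cells at 1750 CPM and in 79 Ctrl cells at 1421 CPM. After thinning, Ccr2 was in 70.2% of RES and 66.3% of Ctrl macrophages, against 23.9% of RES and 24.0% of Ctrl NK cells. Cx3cr1, the fractalkine receptor, was in 35 RES cells at 437 CPM and in 66 Ctrl cells at 651 CPM (log2 -0.57), and after thinning in 38.3% of RES and 44.2% of Ctrl macrophages, against 4.33% of RES and 4.81% of Ctrl NK cells. Ly6c2, a surface marker of classical monocytes, was in 15 RES and 21 Ctrl cells, at 219 CPM in RES and 216 CPM in Ctrl, and NK cells carried it more often (44.9% in RES and 34.8% in Ctrl), so it does not mark ancestry here. Summed over its marker list the classical monocyte genes reached 3829 CPM in RES and 3676 CPM in Ctrl. Across cells, the C1q share ran with the Apoe share (Spearman rho 0.720 over 48 RES cells and 0.789 over 90 Ctrl cells) and against the classical monocyte share (-0.517 in RES and -0.566 in Ctrl). All these shares have the same denominator, the cell's own UMIs.

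Both libraries thus held a gradient that depended on the C1q band. From the lowest to the highest band, Apoe was 2807, 4479 and 25504 CPM in RES and 759, 3801 and 16649 CPM in Ctrl. Over the same bands Plac8 was 2814, 1498 and 337 CPM in RES and 4487, 2259 and 489 CPM in Ctrl. Maf, a transcription factor of differentiated macrophages, was 61.6, 173 and 571 CPM in RES and 164, 374 and 915 CPM in Ctrl. Mrc1, the mannose receptor, was 82.2, 131 and 337 CPM in RES and 11.7, 46.8 and 375 CPM in Ctrl. The fibronectin gene Fn1 was 1486, 1172 and 255 CPM in RES and 222, 705 and 308 CPM in Ctrl, so that its levels in the 2 libraries were closest in the C1q-richest cells.

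**Figure D2:**
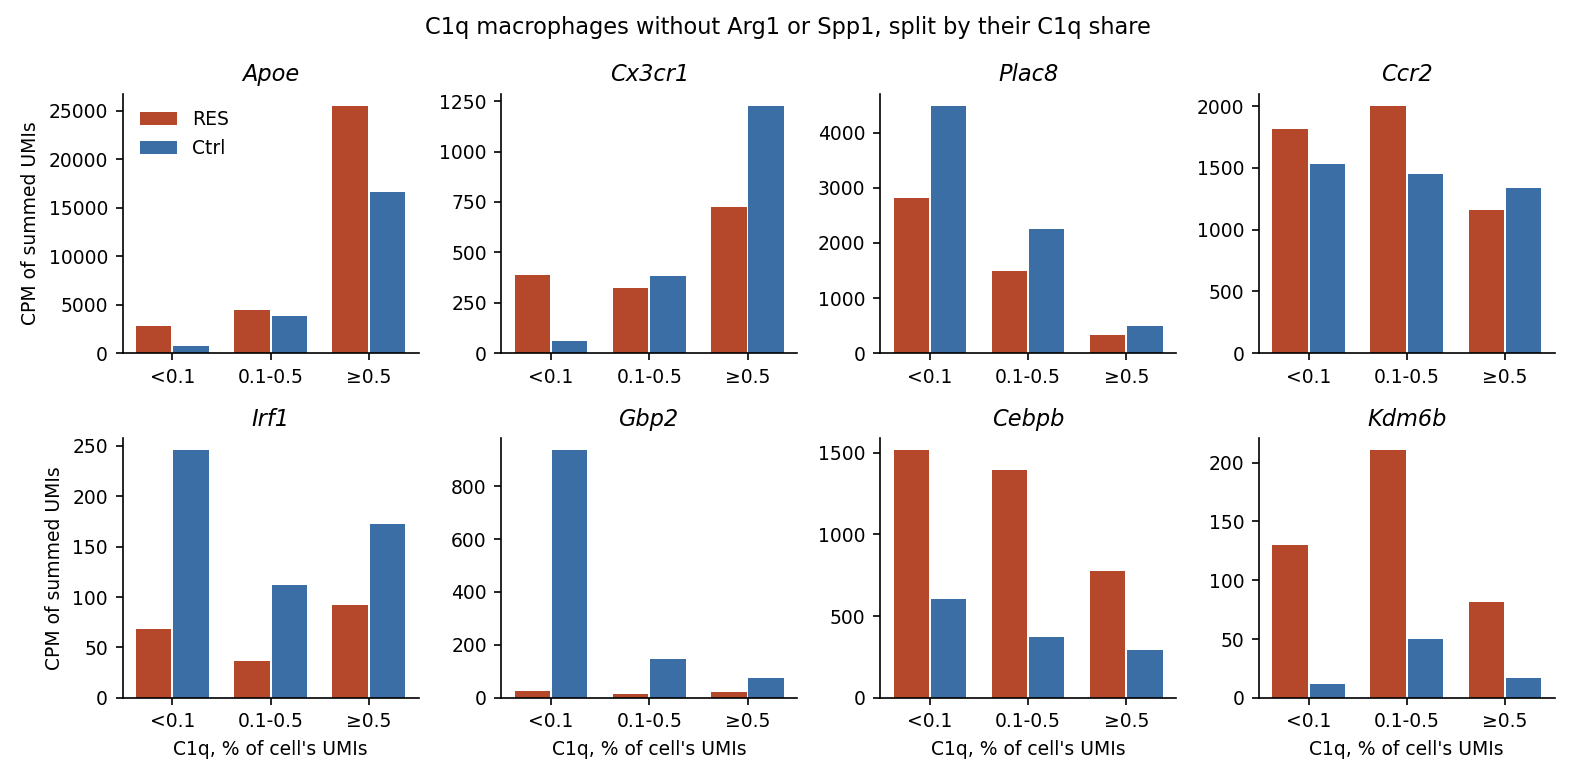
CPM (linear axis from 0) of 8 genes in bands of the C1q share of a cell's UMIs (under 0.1%, 0.1 to 0.5%, and 0.5% or more), with a bar each for RES (15, 19 and 14 cells) and Ctrl (8, 34 and 48 cells). Apoe reaches 25504 CPM in RES and 16649 CPM in Ctrl in the C1q-richest band, where Plac8 is 337 CPM in RES and 489 CPM in Ctrl, and the Gbp2 bars stand lower in RES in each band, with an interval that includes 0 in the C1q-richest.

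Transcripts of lymphocytes, granulocytes and liver parenchyma were few. The NK list summed to 62.2 CPM in RES and 59.1 CPM in Ctrl, and the B cell list to 138 CPM in RES and 120 CPM in Ctrl. T cell genes gave 30 UMIs in 5 RES cells and 4 UMIs in 4 Ctrl cells, and basophil genes gave 11 UMIs in 1 RES cell and 0 in Ctrl. Neutrophil genes summed to 20.7 CPM in RES and 7.77 CPM in Ctrl, hepatocyte genes to 36.8 CPM in RES and 80.8 CPM in Ctrl, and stellate cell genes to 0 in both. Genes of type 2 dendritic cells, which share C1q with macrophages in some settings, summed to 244 CPM in 22 RES cells and 159 CPM in 27 Ctrl cells. The list of type 1 dendritic cells summed to 182 CPM in 35 RES cells and 145 CPM in 45 Ctrl cells, with its defining genes Xcr1 and Clec9a at 0 by the rule. The plasmacytoid dendritic cell list summed to 288 CPM in 39 RES cells and 482 CPM in 77 Ctrl cells. Most of that came from Bst2, which interferon also raises, and Tcf4, while Siglech, its defining gene, had 0 UMIs in RES and 1 in Ctrl. Cycling genes were found in 7 RES and 16 Ctrl cells.

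For the comparison of RES with Ctrl cells, 6335 of 31053 genes reached 20 CPM in at least 1 library. A gene is called higher or lower here when the ratio was at least 1.5-fold, with no test behind it. By that measure 807 genes (12.7%) were higher in RES and 1019 genes (16.1%) were lower, and the median ratio over all of them was -0.01. These shares are the background for each list below. The named genes are the 12 on each side with the largest ratios, after adding 10 CPM, among genes of at least 100 CPM in 1 library. Mitochondrial, ribosomal protein, haemoglobin, Xist, Tsix and Y-linked genes and genes with provisional names were left out before this ranking. The genes of the rule and the marker lists of other cell types were left out too, which removed Nr4a1, a nonclassical monocyte marker. The lists were written with earlier results of these data in view.

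Interferon-driven genes were lower in RES with few exceptions. Of 21 tested genes of the interferon gamma list 17 were lower, against 16.1% of all tested genes, and 0 were higher, with a median ratio of -1.05. Of 18 tested genes of the type I interferon list, which stands for a related pathway, 14 were lower and 0 higher (median -0.79). The interferon gamma genes summed to 1432 CPM in RES and 3793 CPM in Ctrl. In the median cell they took 0.147% of UMIs in RES and 0.248% in Ctrl. Leaving out the cell with the highest count of each gene in each library left 18 interferon gamma genes lower and 0 higher, so the counts did not rest on single cells.

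Irf1, an early transcription factor gene of the interferon response, was 59.9 CPM in RES and 152 CPM in Ctrl (-1.35), and Irf8, a myeloid lineage factor that interferon also raises, was 166 CPM in RES and 312 CPM in Ctrl (-0.91).

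The guanylate-binding proteins, interferon-induced GTPases that act against intracellular microbes, had some of the largest ratios. Gbp2 had 9 UMIs in 8 RES cells and 145 UMIs in 27 Ctrl cells, or 20.7 CPM in RES and 225 CPM in Ctrl (-3.44, -4.60 to -2.48). A single Ctrl cell held 54 of the Gbp2 UMIs, and the ratio was -3.13 without the highest cells. Over the C1q bands from lowest to highest its ratio was -5.09, -3.22 and -1.90, and the last, with 2 RES and 18 Ctrl UMIs, had an interval of -5.05 to 0.17. Gbp3 was in 13 RES cells at 36.8 CPM and 40 Ctrl cells at 140 CPM (-1.93). After thinning it was in 0% of RES and 14% of Ctrl cells, and at 3000 UMIs in 11.4% of RES and 26.7% of Ctrl cells. Gbp5 stood at 9.21 CPM in RES and 85.5 CPM in Ctrl (-3.21), but among cells with C1q at 0.2% of UMIs or more it had 4 RES and 10 Ctrl UMIs (-0.13), under 1.5-fold. Gbp2 and Gbp3 lie close together on chromosome 3 (chr3:142620602-142638008 and chr3:142560026-142573209, plus strand, GRCm38).

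Most genes of the type I interferon list moved the same way, though Mx1 (-0.28) and Xaf1 (-0.09) were under 1.5-fold. Ifi205, of the Ifi200 family of DNA sensors, had 0 UMIs in RES and 59 UMIs in 19 Ctrl cells, at least 13.3-fold lower in RES when the 0 is replaced by 3 counts. One Ctrl cell held 26 of them, and with C1q at 0.5% of UMIs or more 0 RES and 8 Ctrl UMIs were left, too few to bound a 1.5-fold difference (-0.14). Rtp4, an interferon-induced transporter protein gene, was 53.0 CPM in RES and 165 CPM in Ctrl (-1.64). Bst2, the antiviral membrane protein tetherin, was 140 CPM in RES and 347 CPM in Ctrl (-1.30). The ubiquitin-like modifier Isg15 was 106 CPM in RES and 253 CPM in Ctrl (-1.26). A pair of named genes outside the lists was lower too: Fam26f, a membrane protein gene, was in 11 RES cells at 43.7 CPM and 41 Ctrl cells at 187 CPM (-2.09), and Ly6i, a Ly6 family gene of monocytes, in 6 RES cells at 23 CPM and 20 Ctrl cells at 151 CPM (-2.71).

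**Figure D3:**
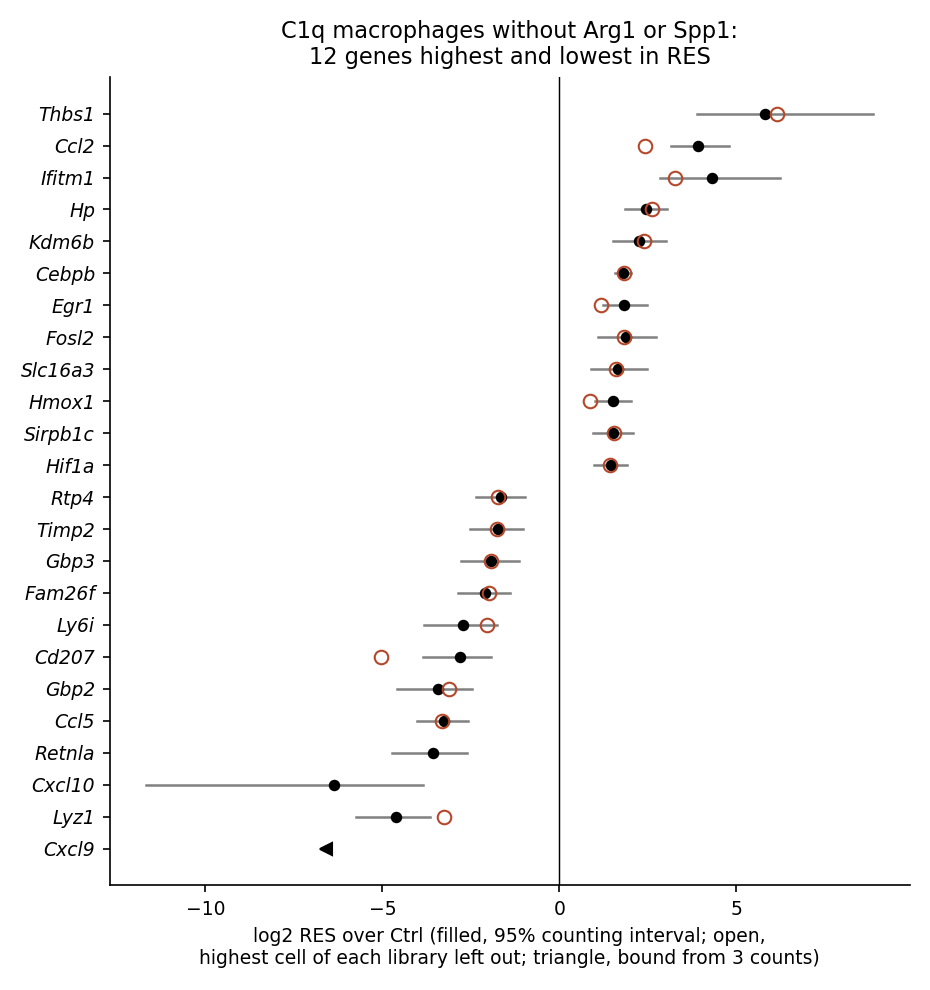
Log2 ratio of RES over Ctrl (CPM over all C1q macrophages without Arg1 or Spp1) for the 12 genes named on each side, filled with exact conditional binomial 95% intervals that cover counting error only, and open, where it could be computed, without the highest cell of each library. Thbs1 (5.80) has the largest ratio among the genes higher in RES, and the triangle of Cxcl9, which had no RES UMI, is its bound from 3 counts.

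Cxcl9 and Cxcl10, chemokines that draw CXCR3-bearing NK and T cells, showed another pattern, since most of their UMIs lay in few Ctrl cells. Cxcl9 had 0 UMIs in RES and 428 UMIs in Ctrl (665 CPM), at least 96.3-fold lower in RES. The 4 Ctrl cells with the most had 214, 146, 33 and 25 UMIs, together 418. These 4 cells had 32 UMIs of C1qb and none of C1qa or C1qc, and they carried Plac8 at 6015 CPM and Apoe at 1047 CPM. The Ctrl cells with C1qb alone held 422 of the 428 Cxcl9 UMIs, while the 74 Ctrl cells with all 3 chains held 6 UMIs in 3 cells (12.1 CPM). Cxcl10 had 1 UMI in RES and 122 UMIs in 12 Ctrl cells, or 2.30 CPM in RES and 190 CPM in Ctrl (-6.36, -11.68 to -3.86), and 67 of its UMIs lay in the cell that also had the most Cxcl9. With all 3 C1q chains required, which leaves those cells out, the median of the interferon gamma list was -0.73.

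**Figure D4:**
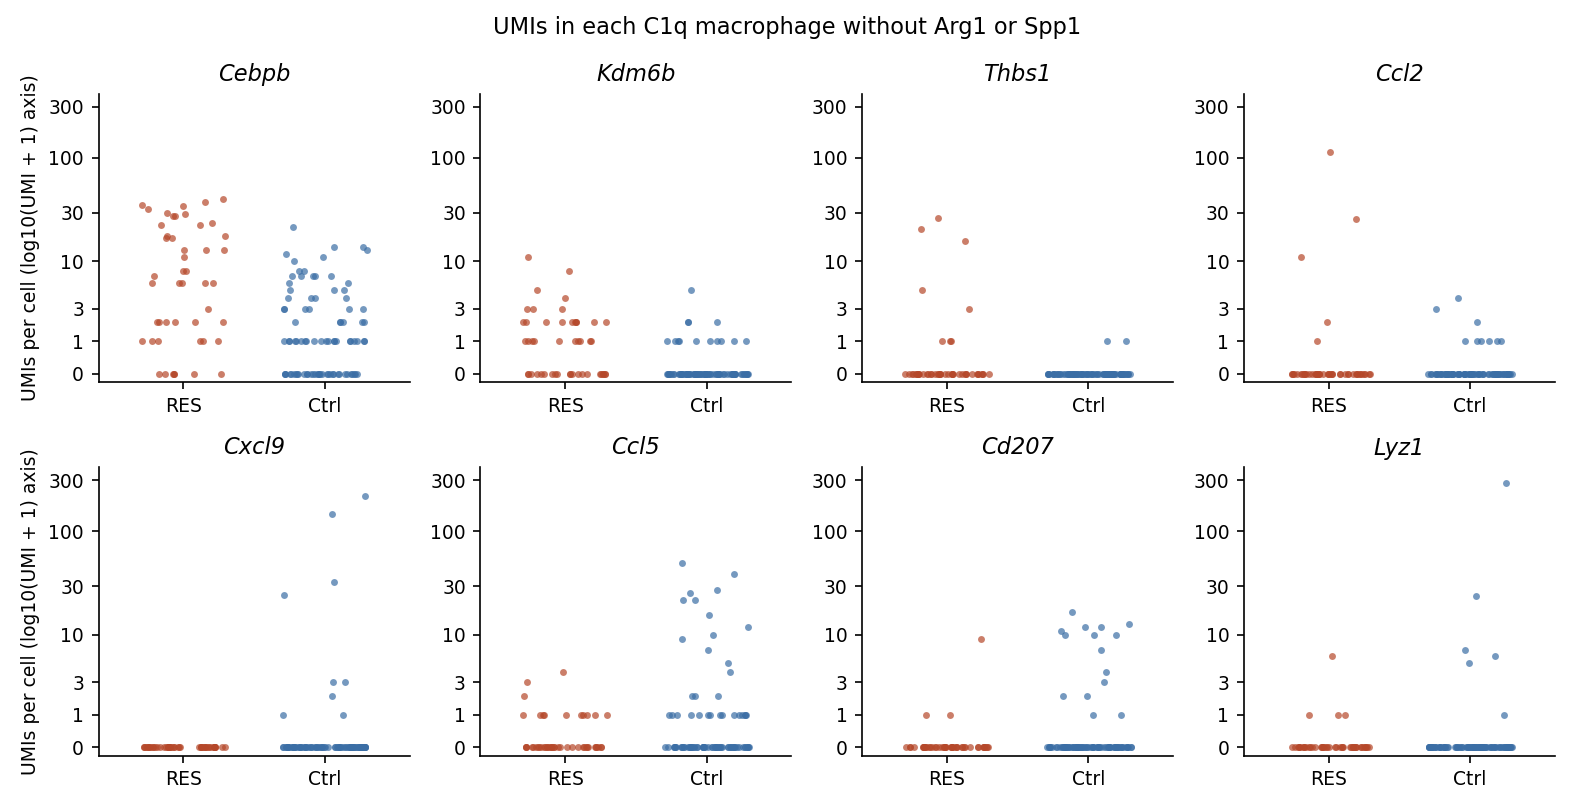
UMIs per cell (log10 axis of UMIs plus 1) of 8 genes in each C1q macrophage without Arg1 or Spp1, RES (48 cells) left of Ctrl (90 cells), 1 point per cell. Cxcl9 is carried by 9 Ctrl cells, 4 of which hold 418 of 428 UMIs, whereas Cebpb is spread over 41 RES and 56 Ctrl cells.

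For Cxcl10 the upstream sequence is shown because its letters bear on the class of factor that the interferon lists stand for. The 250 bases before the RefSeq start of each gene were searched on both strands for 2 motifs, the gamma-activated site in the form TTCNNNGAA and the interferon-stimulated response element as a direct repeat of its core. The first occurs in 2306 of 32851 promoter windows (7.02%) and the second in 978 (2.98%). Cxcl10 held 1 match of the second, in capitals in this stretch of GRCm38.p6 (RefSeq, chr5:92349078-92349117, minus strand, 228 to 189 bases before the start).
Cxcl10: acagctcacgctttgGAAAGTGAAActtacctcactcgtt
Gbp2 held 1 match of the same element, Cxcl9 held none of either motif in its window, and none of the 3 genes held the gamma-activated site there. The capitals mark letters that match, not a shown site. Cxcl9 and Cxcl10 lie close together on chromosome 5 (chr5:92321347-92328079 and chr5:92346638-92348889, GRCm38).

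Antigen-presentation genes differed less. Of 9 tested MHC class II genes 1 was lower and 0 higher, near the background share, and the median was -0.31. H2-Aa, an MHC class II alpha chain, was 5813 CPM in RES and 7199 CPM in Ctrl (-0.31), and the invariant chain Cd74 was 15257 CPM in RES and 18056 CPM in Ctrl (-0.24). In the median cell MHC class II genes took 3.30% of UMIs in RES and 4.87% in Ctrl. Ciita, their transactivator, was the gene past 1.5-fold, at 235 CPM in RES and 364 CPM in Ctrl (-0.63). After thinning it was in 17.0% of RES and 41.9% of Ctrl cells. At 3000 UMIs these shares were 40.9% in RES and 52.0% in Ctrl. Of 18 tested MHC class I genes 5 were lower and 0 higher (median -0.47, and -0.04 with C1q at 0.5% of UMIs or more), among them the class I gene H2-T22 at 43.7 CPM in RES and 96.4 CPM in Ctrl and the proteasome activator Psme2 at 198 CPM in RES and 382 CPM in Ctrl (-0.95, and -0.34 with C1q at 0.5% or more).

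Chemokines as a group were split, with 6 of 14 higher and 6 lower. Ccl2, the ligand of CCR2, had 154 UMIs in 5 RES cells and 15 UMIs in 9 Ctrl cells, or 355 CPM in RES and 23.3 CPM in Ctrl (3.93, 3.16 to 4.80). A single RES cell held 114 of those UMIs, and the ratio was 2.43 without the highest cells. Ccl7, encoded close to Ccl2, had 16 of its 17 RES UMIs in 1 cell, a different one. Ccl9 and Ccl6, other myeloid chemokines, were more widely spread: Ccl9 was 576 CPM in RES and 233 CPM in Ctrl (1.30), and Ccl6 was 1322 CPM in RES and 839 CPM in Ctrl (0.65).

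On the lower side, Ccl5, a chemokine of NK and T cells that macrophages make under interferon, was in 13 RES cells at 43.7 CPM and 31 Ctrl cells at 421 CPM (-3.27, -4.02 to -2.60). After thinning, 4.26% of RES and 17.4% of Ctrl cells carried Ccl5, beside 99.1% of RES and 99.3% of Ctrl NK cells, and the part of free NK transcripts in these UMIs was not tested. At 3000 UMIs, 11.4% of RES and 21.3% of Ctrl cells carried Ccl5. In the C1q-richest band Ccl5 had 3 RES and 10 Ctrl UMIs (-0.46, -2.96 to 1.5), under 1.5-fold, and 245 of the 271 Ctrl UMIs lay in the middle band. Pf4, platelet factor 4, was 57.6 CPM in RES and 143 CPM in Ctrl (-1.31, but -0.15 with barcodes thinned to 3000 UMIs), and platelet markers summed to 59.9 CPM in RES and 154 CPM in Ctrl. Ccl24, an eosinophil attractant, was 2.30 CPM in RES and 76.2 CPM in Ctrl (-5.05), and its ratio became 1.07 once cells with 1 UMI of Arg1 or Spp1 were taken in.

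Of 26 tested myeloid transcription factor genes 3 were higher in RES and 6 were lower, beside 12.7% higher and 16.1% lower among all tested genes. The higher count is near that share. Cebpb and the genes of the next paragraph are examples from the higher side. Cebpb, which encodes a leucine-zipper factor of monocytes and of acute-phase responses, was in 41 of 48 RES cells (85.4%) and 56 of 90 Ctrl cells (62.2%). The median cell had 6 Cebpb UMIs in RES and 1 in Ctrl, and the summed level was 1294 CPM in RES and 375 CPM in Ctrl (1.79, 1.57 to 2.01). After thinning, 46.8% of RES and 29.1% of Ctrl cells carried it, and NK cells too carried it more often in RES (9.11%) than in Ctrl (4.20%). Its ratio was 1.32, 1.91 and 1.39 over the C1q bands from lowest to highest.

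Kdm6b, a demethylase of the repressive histone mark H3K27me3 that is known to be induced in activated macrophages, had 67 UMIs in 27 RES cells (56.2%) and 21 UMIs in 14 Ctrl cells (15.6%). That came to 154 CPM in RES and 32.6 CPM in Ctrl (2.24, 1.51 to 3.02), with ratios of 3.48, 2.07 and 2.27 over the bands. The lowest band rests on 19 RES UMIs and 1 Ctrl UMI (interval 0.82 to 8.85). The highest rests on 8 RES and 4 Ctrl UMIs (0.37 to 4.46). After thinning, 21.3% of RES and 0% of Ctrl macrophages carried Kdm6b, against 4.33% of RES and 4.28% of Ctrl NK cells. At 3000 UMIs, 25% of RES and 8% of Ctrl macrophages carried it, against 11.3% of RES and 13.3% of Ctrl NK cells. Hif1a, the oxygen-sensing factor, was in 25 RES cells at 258 CPM and 31 Ctrl cells at 94.8 CPM (1.44, 0.98 to 1.92), and after thinning in 21.3% of RES and 4.65% of Ctrl cells, against 5.22% of RES and 6.47% of Ctrl NK cells. Fosl2, of the AP-1 family, was in 19 RES cells at 108 CPM and 15 Ctrl cells at 29.5 CPM (1.87, 1.08 to 2.72), but in the C1q-richest band it had 4 RES and 8 Ctrl UMIs (0.27), under 1.5-fold. After thinning, Fosl2 was in 2 RES (4.26%) and 3 Ctrl macrophages (3.49%). These shares were no higher than in NK cells (4.44% in RES and 3.85% in Ctrl). Thinned to 3000 UMIs, 29.5% of RES and 8% of Ctrl macrophages carried Fosl2, against 12.8% of RES and 11.8% of Ctrl NK cells.

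The AP-1 and other immediate-early genes, which also respond to tissue dissociation, were higher in 8 of 15 tested and lower in 0, with a median of 0.63. Egr1, a zinc-finger factor, was 177 CPM in RES and 49.7 CPM in Ctrl (1.83), though 36 of its 77 RES UMIs lay in 1 cell and its ratio was 1.17 without the highest cells. Nr4a1, a nuclear receptor gene, was 117 CPM in RES and 32.6 CPM in Ctrl (1.85). Fos was 675 CPM in RES and 401 CPM in Ctrl (0.75, but 0.33 as a mean over cells), and Junb was 652 CPM in RES and 386 CPM in Ctrl (0.76). Heat shock genes, another sign of handling, were higher in 2 of 10 with a median of 0.00. The part of handling in these differences was not tested.

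Genes that glucocorticoid hormone induces in leukocytes were higher in 6 of 7 tested, against 12.7% of all tested genes (median 1.03), and in 4 once the highest cells were left out. Fkbp5, a chaperone of the glucocorticoid receptor, was in 14 RES cells at 39.1 CPM and 4 Ctrl cells at 6.22 CPM (2.65). Tsc22d3, which encodes the protein GILZ, was in 30 RES cells at 166 CPM and 32 Ctrl cells at 73.1 CPM (1.18). Tgm2, a transglutaminase of the same list, was 198 CPM in RES and 90.2 CPM in Ctrl (1.13), but 48 of its 86 RES UMIs lay in 1 cell and its ratio was 0.14 without the highest cells.

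Transcription factor genes that were lower in RES included Maf and Spic, beside Irf1 and Irf8 given above. Maf stood at 226 CPM in RES and 546 CPM in Ctrl (-1.27). Spic, a factor of iron-handling macrophages, was in 2 RES cells at 4.60 CPM and 17 Ctrl cells at 62.2 CPM (-3.76). Over the list of 26 tested myeloid factors, which holds Maf but not Spic, the median was -0.14, with 3 higher and 6 lower.

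**Figure D5:**
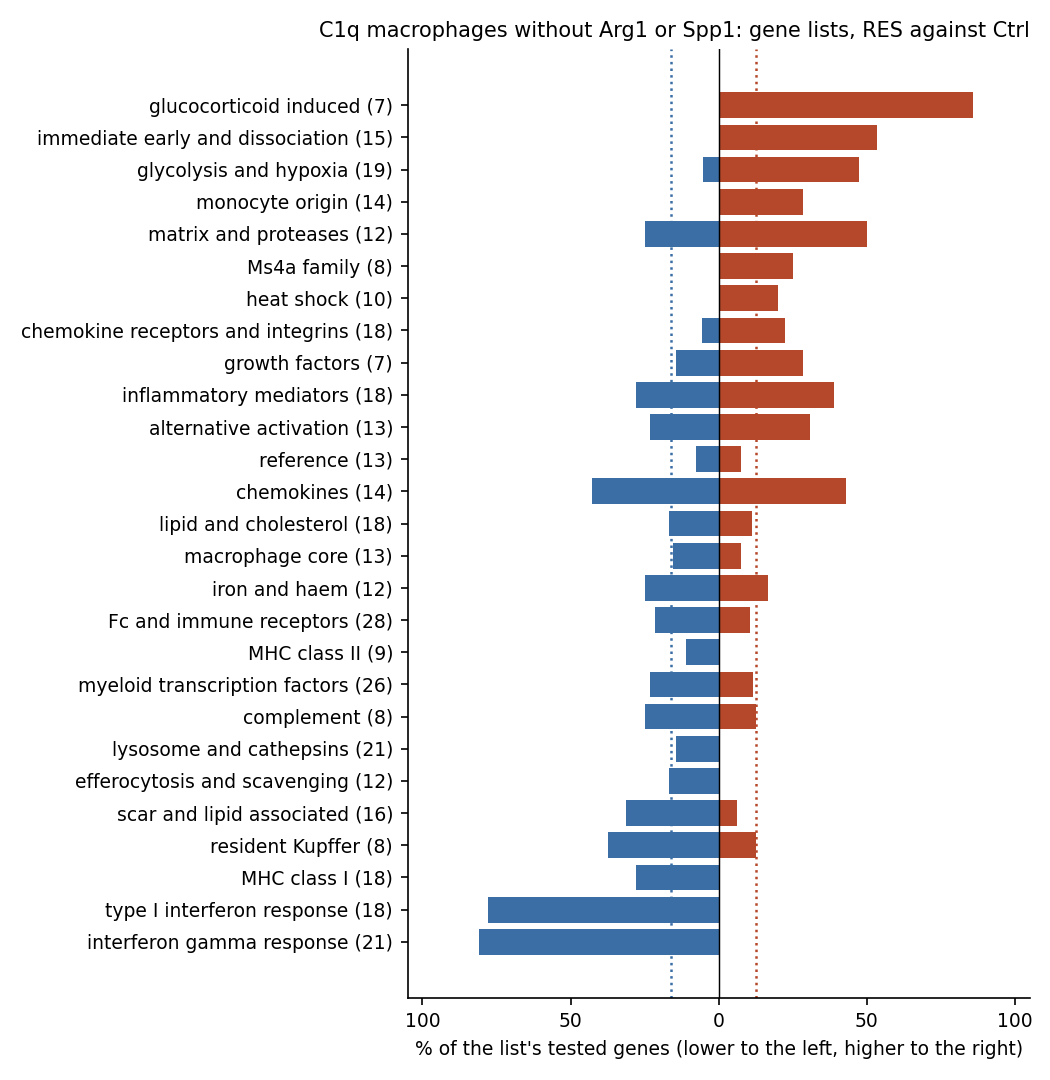
Share of each list's tested genes (percent, number tested in brackets) that were 1.5-fold or more higher in RES (right, red) or lower in RES (left, blue), over C1q macrophages without Arg1 or Spp1. Dotted lines mark all tested genes (12.7% higher, 16.1% lower); the glucocorticoid bar (6 of 7 genes) is the longest to the right and the interferon gamma bar (17 of 21) the longest to the left.

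Matrix genes and proteases were higher in 6 of 12 tested and lower in 3, with a median of 0.51. Thbs1, thrombospondin 1, a matrix protein known to activate latent TGF-beta, had 75 UMIs in 8 RES cells and 2 UMIs in 2 Ctrl cells, or 173 CPM in RES and 3.11 CPM in Ctrl (5.80, 3.89 to 8.87). The highest RES cell held 27 of them, and the ratio was 6.15 without the highest cells. By C1q band, from lowest to highest, the RES cells held 40, 34 and 1 of these UMIs, so the difference rests on cells under 0.5% C1q. Fn1 was in 26 RES cells at 1071 CPM and 21 Ctrl cells at 494 CPM (1.11), but its ratio was -0.27 in the C1q-richest band. A UMI of Fn1 was also found in 22.7% of RES NK cells and 1.29% of Ctrl NK cells, and the part of free transcripts in its ratio was not tested. Vcan, the proteoglycan versican of monocytes, was 43.7 CPM in RES and 6.22 CPM in Ctrl (2.81). Timp1, an inhibitor of matrix metalloproteinases, had 29 UMIs in 4 RES cells and 0 in Ctrl, at least 14.3-fold higher.

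The matrix genes that were lower in RES included other members of the same families. Timp2 was in 14 RES cells at 43.7 CPM and 40 Ctrl cells at 146 CPM (-1.74). Mmp13, a collagenase, was 11.5 CPM in RES and 59.1 CPM in Ctrl (-2.36).

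Inflammatory genes were divided, with 7 of 18 higher and 5 lower. The cytokine Il1b was 433 CPM in RES and 219 CPM in Ctrl (0.98, but 0.26 with barcodes thinned to 3000 UMIs). Nfkbia and Tnfaip3, feedback inhibitors of NF-kappaB, were higher in RES: Nfkbia at 495 CPM in RES and 247 CPM in Ctrl (1.0), Tnfaip3 at 62.2 CPM in RES and 17.1 CPM in Ctrl (1.86). Acod1, the itaconate-forming enzyme that interferon also induces, had 0 UMIs in RES and 35 in Ctrl, at least 7.88-fold lower. With C1q at 0.2% of UMIs or more 0 RES and 7 Ctrl UMIs of Acod1 were left, too few to bound a 1.5-fold difference (-0.03). From other lists, Osm, the cytokine oncostatin M, had 23 UMIs in 8 RES cells and 0 in Ctrl, at least 11.4-fold higher, and Socs3, an inhibitor of cytokine signalling, was in 17 RES cells at 99.0 CPM and 8 Ctrl cells at 12.4 CPM (2.99).

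Genes of glycolysis and the hypoxic response were higher in 9 of 19 tested and lower in 1, with a median of 0.49, though 5 were higher and 3 lower without the highest cells. The gene called lower was Bnip3, with 4 RES and 13 Ctrl UMIs (-1.13, -3.21 to 0.56). The lactate transporter Slc16a3 was in 15 RES cells at 108 CPM and 18 Ctrl cells at 34.2 CPM (1.66). Eno1, an enolase, was 196 CPM in RES and 79.3 CPM in Ctrl (1.30, but 0.49 in the C1q-richest band), and Ldha, a lactate dehydrogenase, 315 CPM in RES and 173 CPM in Ctrl (0.87). Hmox1 of the iron and haem list, which degrades haem, was in 22 RES cells at 221 CPM and 20 Ctrl cells at 77.7 CPM (1.51), with 54 of 96 RES UMIs in 1 cell and a ratio of 0.87 without the highest cells.

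Genes of scar- and lipid-associated macrophages did not move as a block: the median was -0.21, and 1 of 16 tested was higher and 5 were lower. Trem2, the receptor by which such macrophages are named, was 152 CPM in RES and 127 CPM in Ctrl. Over the C1q bands from lowest to highest its ratio was 1.97 (0.21 to 4.36), 1.68 (0.50 to 2.95) and -0.08 (-0.78 to 0.58). The lowest band rests on 20 RES and 3 Ctrl UMIs. Fabp5, a fatty-acid-binding protein, was 104 CPM in RES and 303 CPM in Ctrl (-1.55), but its ratio was 0.05 in the C1q-richest band. Gpnmb, a lysosome-related glycoprotein, was 2.30 CPM in RES and 37.3 CPM in Ctrl (-4.02, but -0.64 with barcodes thinned to 3000 UMIs). It had 1 RES UMI and 24 UMIs in 5 Ctrl cells, 12 of them in 1 cell. The lipase Lpl was 161 CPM in RES and 350 CPM in Ctrl (-1.12, but -0.42 as a mean over cells). Plin2, a lipid-droplet coat protein, was 302 CPM in RES and 151 CPM in Ctrl (1.0), with a ratio of -0.14 in the C1q-richest band.

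The machinery for taking up dying cells was near its Ctrl level in most genes, with 2 of 12 tested genes lower and 0 higher. Axl, a receptor tyrosine kinase that binds phosphatidylserine through a bridging ligand and is known to be raised by interferon, was in 29 of 48 RES cells and 78 of 90 Ctrl cells. Its level was 154 CPM in RES and 344 CPM in Ctrl (-1.16), and after thinning it was in 6.38% of RES and 39.5% of Ctrl cells. At 3000 UMIs the shares lay closer together, at 36.4% in RES and 58.7% in Ctrl. In the C1q-richest band it was 326 CPM in RES and 443 CPM in Ctrl (-0.44, -1.06 to 0.14), under 1.5-fold. Mertk, its relative, was 64.5 CPM in RES and 51.3 CPM in Ctrl. Lysosomal genes were lower in 3 of 21 and higher in 0 (median -0.28).

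A few further genes on the named list belong to no group above. Hp, haptoglobin, was in 16 RES cells at 269 CPM and 12 Ctrl cells at 49.7 CPM (2.44). In the C1q-richest band it had 1 RES UMI and 7 Ctrl UMIs, the latter all in 1 cell. The ratio there was -1.53, with an interval of -7.03 to 1.43 that includes 0. Sirpb1c, a signal-regulatory receptor gene, was in 28 cells of each library, at 186 CPM in RES and 65.3 CPM in Ctrl (1.51), and after thinning in 27.7% of RES and 9.30% of Ctrl cells. Ifitm1, an interferon-induced transmembrane protein gene, differed from the interferon lists above in being higher, at 122 CPM in RES and 6.22 CPM in Ctrl (4.29), with 40 of 53 RES UMIs in 1 cell that had a high doublet score, and its ratio was 2.29 with such cells left out.

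Among the lower genes of that list, Cd207, the langerin gene, was in 3 RES cells at 25.3 CPM and 15 Ctrl cells at 179 CPM (-2.82), and within Ctrl it lay almost wholly in C1q-rich cells, at 0, 9.36 and 472 CPM from the lowest to the highest band. Lyz1, a second lysozyme gene, had 282 of its 325 Ctrl UMIs in 1 cell (-4.61 with it). In the C1q-richest band it had 6 RES and 6 Ctrl UMIs (1.27, -0.63 to 3.18). Lyz1 and Lyz2 are near-identical copies, so reads may have been split between them. Retnla, a marker of alternative activation, was carried by 1 RES cell (9 UMIs) and 2 Ctrl cells (158 UMIs).

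The remaining lists had genes on both sides or few past 1.5-fold. Of 28 tested Fc and immune receptor genes 3 were higher and 6 lower, of 18 lipid and cholesterol genes 2 were higher and 3 lower, and of 12 iron and haem genes 2 were higher and 3 lower. Of 13 core macrophage genes 1 was higher and 2 lower (median -0.13), and of 13 reference genes, chosen as broadly expressed, 1 was higher and 1 lower (0.06). Chemokine receptors and integrins counted 4 higher and 1 lower of 18, alternative activation genes 4 higher and 3 lower of 13, the Ms4a family 2 higher of 8, and growth factors 2 higher and 1 lower of 7. Monocyte-origin genes were higher in 4 of 14, complement genes higher in 1 and lower in 2 of 8, and the broader Kupffer list higher in 1 and lower in 3 of 8.

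The same ratios can be set beside those of the 2 populations closest to these macrophages, which come from the same libraries and so share what distinguishes them. C1q macrophages with Arg1 or Spp1 numbered 349 in RES and 14 in Ctrl, and 22.3% of their 6424 tested genes were higher and 22.6% lower. Lyz2 cells under the C1q limit numbered 938 in RES and 955 in Ctrl, and 2.98% of their 5777 tested genes were higher and 2.51% lower. The lower counts of the interferon lists occurred in all 3. Interferon gamma genes were lower in 17 of 20 in the first comparison population (median -1.79) and 16 of 20 in the second (-1.04), with 0 higher in either. Gbp2 had a ratio of -3.44 in the macrophages free of Arg1 and Spp1, -5.43 in those with them and -2.77 in the C1q-low cells.

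Kdm6b had unlike ratios in these populations, and the difference was not tested. Its ratio was 2.24 (1.51 to 3.02) in the macrophages free of Arg1 and Spp1, 2.36 (0.50 to 5.41) in those with either, and 0.07 (-0.08 to 0.22) in the C1q-low cells, which stood at 97.6 CPM in RES and 93.1 CPM in Ctrl. Cebpb was higher in RES in all 3, at 1.79, 1.24 and 0.79. Glucocorticoid-induced genes were higher in 6 of 7, 3 of 8 and 3 of 9. MHC class II genes were lower in 1 of 9, 7 of 8 and 8 of 9. Timp2 had a ratio of -1.74, 0.10 and -0.09.

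Levels in these macrophages also differed from the others within each library. As C1q, Arg1 and Spp1 defined the populations on the same cells, this is a description. Beside C1q macrophages with Arg1 or Spp1, they had more Ciita (235 against 52.1 CPM in RES, 364 against 113 CPM in Ctrl), Ms4a7 (233 against 35.3 CPM in RES, 173 against 15 CPM in Ctrl), a tetraspanning membrane protein of macrophages, and the cell adhesion gene Cadm1 (43.7 against 4.60 CPM in RES, 117 against 7.51 CPM in Ctrl). They had less Fn1 (1071 against 9906 CPM in RES, 494 against 3595 CPM in Ctrl), Hilpda, a hypoxia-inducible lipid-droplet gene (11.5 against 201 CPM in RES, 7.77 against 90.1 CPM in Ctrl), and the cytokine Mif (244 against 958 CPM in RES, 162 against 690 CPM in Ctrl).

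Beside Lyz2 cells low in C1q, they had more of a pair of receptors in both libraries. C3ar1, the receptor for the complement fragment C3a, was 124 against 7.96 CPM in RES and 154 against 5.23 CPM in Ctrl. Mrc1 was 161 against 21.2 CPM in RES and 163 against 17.1 CPM in Ctrl. Other genes stood lower, among them the enolase gene Eno3 (13.8 against 118 CPM in RES, 10.9 against 84.4 CPM in Ctrl), Pglyrp1, a peptidoglycan recognition protein gene (6.91 against 229 CPM in RES, 20.2 against 189 CPM in Ctrl), and the transmembrane protein gene Ifitm6 (175 against 573 CPM in RES, 118 against 514 CPM in Ctrl).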

How the data were processed

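The authors deposited 1 matrix of raw UMI counts per library, made with Cell Ranger 3.1.0 per the file headers and with the mm10 build and bcl2fastq per the submitters' processing notes. Deposited barcodes numbered 4278 in RES and 3691 in Ctrl. The members and the 27 gene lists and 20 marker lists were chosen with earlier results of these data known. Counts were summed over cells and divided by the summed UMIs; genes of at least 20 CPM in 1 library were compared. The 1.5-fold limit is no test. Named genes were those of at least 100 CPM with the 12 largest ratios on each side after adding 10 CPM. Technical genes, rule genes and marker lists of other cell types were left out first. The 2 highest and 2 lowest genes of each list were set as examples. Not all of these are given above, and some genes given are other members of a list. A count of 0 was replaced by 3. The split by C1q chain, and the alternatives with all 3 chains, with C1q at 0.5% of UMIs, without the highest cell and with Lyz2 cells as the denominator, were chosen after seeing the data. Doublets were scored with Scrublet in scanpy 1.11.5. The code was tested on simulated data. Python 3.11.15, numpy 2.4.6, scipy 1.17.1, pandas 2.3.3 and statsmodels 0.14.6 were used. Sequences are from RefSeq on GRCm38.p6. Some listed genes are not reported here.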

Additional observations from a re-analysis of the deposited data

Results flagged for a closer look

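Retnla, which encodes a secreted protein of alternatively activated macrophages, was higher in RES in C1q macrophages with Arg1 or Spp1, at 199 CPM in RES and 37.5 CPM in Ctrl (log2 2.41, counting interval 1.18 to 4.03), and lower in RES in those without, at 20.7 CPM in RES and 246 CPM in Ctrl (-3.57). It was picked out because the ratio had opposite signs in the 2 populations, and the difference between them was not tested. In the macrophages without Arg1 or Spp1 the transcripts came from 1 RES cell and 2 Ctrl cells.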

How the results depend on the processing

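No paired analysis was possible because each group has 1 library, and for the same reason no library could be left out. The difference in the share of kept barcodes stayed between -1.72 and -1.02 points under the alternative rules for the cells, and was -5.73 points with Lyz2 cells as the denominator. Counts of genes moved more. Against 807 higher and 1019 lower, they were 1495 and 1737 with barcodes thinned to 3000 UMIs, 1983 and 2013 with C1q at 0.5% of UMIs or more, 112 and 141 with a filter of 100 CPM, and 2241 and 3295 with no filter beyond 1 UMI. With C1q at 0.2% or more 1365 were higher. Without the highest cell of each gene 626 were higher and 1107 lower, so that 36.1% of calls were higher, against 44.2%. Of 1285 gene ratios recomputed for 93 genes, 1074 stayed within their counting interval, 202 moved beyond it and 9 changed sign. These were Ccl24 with 1 UMI of Arg1 or Spp1 allowed (1.07), Cd5l without the highest cell (0.57), Tgm2 with C1q at 0.2% or more (-0.64), and, with C1q at 0.5% or more, Tgm2 (-0.81), Fabp5 (0.052), Fn1 (-0.27), Hp (-1.53), Lyz1 (1.27) and Plin2 (-0.14). Some of these rest on few UMIs: with C1q at 0.5% or more, Hp had 1 RES and 7 Ctrl UMIs, and Lyz1 had 6 in each library. The cause was not tested. The interferon gamma median ranged from -1.33 to -0.73 and the type I interferon median from -1.18 to -0.58, negative in 17 of 17 alternatives each; the glucocorticoid median ranged from 0.64 to 1.15. Depth limits single genes: at 434349 UMIs in RES, a gene at 20 CPM rests on fewer than 10 UMIs.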
